A study of Homo sapiens with 12 samples.

Results

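The IGF binding proteins and IGF receptors were followed as 10 genes of the 19775 measured: IGFBP1 to IGFBP7, the IGF1 receptor gene IGF1R, the IGF2 and mannose 6-phosphate receptor gene IGF2R, and the insulin receptor gene INSR. They were chosen by name, because IGF signalling has been tied to the drug tolerance of PC9 cells, but with earlier results of these data known. Member counts and sizes set beside those of all genes are thus not independent of that choice. Each member was read from its brightest probe set (by mean over the 12 arrays) among those annotated with that symbol alone. All 10 were measured, by 29 probe sets. RNA came from PC9, a human lung adenocarcinoma line with an activating EGFR mutation, and was hybridized to Affymetrix Hgu133plus2 arrays. The groups were pre-miR-371 cells in 2 μM erlotinib (an EGFR kinase inhibitor), pre-miR-371 cells in DMSO, GFP vector cells in 2 μM erlotinib and GFP vector cells in DMSO, each with 3 arrays of total RNA taken after 24 h. All groups carry a lentiviral insert, and the labels name only 1 stable line of each kind. An effect of pre-miR-371 and a difference between these particular lines thus cannot be told apart. Whether replicate arrays came from separate cultures is not in the labels. The paper calls its replicates in general biological and from independent experiments, without naming the arrays. The p-values here thus reflect only how far these samples spread, and that spread may be technical.

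IGF1 and IGF2 act through IGF1R, a receptor tyrosine kinase, and IGF2 also acts through a form of INSR; both receptors signal through IRS adaptors to PI3K and AKT. IGF2R has no kinase, binds IGF2 and takes it to the lysosome, and it also sorts lysosomal enzymes that carry mannose 6-phosphate. The IGFBPs are secreted proteins that hold IGFs outside the cell with high affinity (IGFBP7 binds them weakly), so that they can keep IGFs from the receptors or deliver them, and proteases release IGFs by cutting the IGFBPs.

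The hairpin expressed in the pre-miR-371 line gives a pair of mature miRNAs, shown from RefSeq (GRCh38.p14) because that line was made to express the hairpin, with the seed, bases 2 to 8, in capitals. The 3p strand lies at chr19:53787716-53787738 and the 5p strand at chr19:53787680-53787699, both on the plus strand.
hsa-miR-371a-3p: aAGUGCCGccaucuuuugagugu
hsa-miR-371a-5p: aCUCAAACugugggggcacu

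Promoter windows of 300 bases (250 before to 50 after the annotated start, RefSeq, GRCh38.p14) were matched for 8 of the 10 genes. Shown here, from 5′ to 3′ on the gene's strand, are the windows of the genes with the largest erlotinib responses and of INSR, with matches to the searched motifs in capitals. IGFBP5 lies at chr2:216695500-216695799 (minus strand), IGFBP3 at chr7:45921223-45921522 (minus), IGFBP4 at chr17:40443200-40443499 (plus) and INSR at chr19:7294365-7294664 (minus).
IGFBP5: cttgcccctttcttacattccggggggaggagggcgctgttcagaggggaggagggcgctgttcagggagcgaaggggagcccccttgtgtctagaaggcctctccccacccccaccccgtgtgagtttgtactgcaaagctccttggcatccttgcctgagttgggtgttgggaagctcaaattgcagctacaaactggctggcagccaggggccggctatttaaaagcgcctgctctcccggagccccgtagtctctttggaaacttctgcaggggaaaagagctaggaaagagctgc
IGFBP3: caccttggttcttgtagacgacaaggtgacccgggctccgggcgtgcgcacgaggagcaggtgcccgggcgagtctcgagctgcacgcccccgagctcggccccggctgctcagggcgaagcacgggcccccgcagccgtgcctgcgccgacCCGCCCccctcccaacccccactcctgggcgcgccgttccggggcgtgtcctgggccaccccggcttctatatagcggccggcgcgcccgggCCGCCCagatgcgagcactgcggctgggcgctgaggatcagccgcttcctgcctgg
IGFBP4: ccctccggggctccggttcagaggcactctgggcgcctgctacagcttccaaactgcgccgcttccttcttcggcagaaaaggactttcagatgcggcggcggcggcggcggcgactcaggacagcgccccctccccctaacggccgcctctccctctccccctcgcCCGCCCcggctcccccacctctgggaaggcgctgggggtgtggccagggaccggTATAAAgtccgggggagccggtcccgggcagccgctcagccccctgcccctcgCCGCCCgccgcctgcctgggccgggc
INSR: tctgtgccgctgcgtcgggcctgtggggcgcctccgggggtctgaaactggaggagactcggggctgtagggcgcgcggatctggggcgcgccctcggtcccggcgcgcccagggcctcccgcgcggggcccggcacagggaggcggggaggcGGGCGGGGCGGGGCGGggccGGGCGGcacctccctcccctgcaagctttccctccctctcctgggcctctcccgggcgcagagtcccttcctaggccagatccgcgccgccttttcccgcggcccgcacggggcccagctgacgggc

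The windows were searched on both strands for the motifs named next, and a match can overlap its neighbour. The TATA box core, which places the start of transcription, was searched as TATAAA and was in 11.5% of all 35116 windows of this length. The core bound by FOXO factors, which AKT keeps out of the nucleus, was searched as GTAAACA and was in 3.42% of them. For AP-1, whose FOS and JUN subunits act below ERK, the letters were TGAGTCA, found in 4.95%. The E-box, CACGTG, was in 7.26%, and the GC box that SP1 binds, GGGCGG, was in 45.0%. The IGFBP4 window held a TATA box core that begins at position -29 from the start, and 2 GC boxes, and the IGFBP3 window held 2 GC boxes. INSR had 4 GC boxes, the first beginning at position -97, and no TATA box core. None of the searched motifs was in the IGFBP5 window. Of the windows not printed, that of IGFBP6 held the only FOXO core among the members, at position -186, and that of IGF2R held 6 GC boxes and 3 E-boxes. The windows of IGF2R, IGFBP3, IGF1R, IGFBP4 and INSR had a GC content of 74% to 79.7%. Other member windows had 55.3% to 70%, and the median over all windows was 58.7%. GC boxes were found in 7 of the 8 genes with a window (8 of 10 windows), the TATA box core, the FOXO core and the E-box in 1 gene each, and the AP-1 motif in 0. These matches describe the letters and say nothing of which factor was bound. In the gene order of the same assembly, IGFBP2 and IGFBP5 are neighbours on chromosome 2, and IGFBP1 and IGFBP3 on chromosome 7, with 0 protein-coding genes between the members of either pair.

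The 12 arrays had median log2 values of 4.31 to 4.41, and the mean r of an array with the others of its group, over probe sets, was 0.997 to 0.998. DUSP6, a phosphatase gene switched on by EGFR and ERK signalling, fell with erlotinib (log2 fold change -6.00 in the pre-miR-371 line and -5.91 in the GFP vector line), and SPRY4, EGR1 and CCND1 also fell in both lines. All 8 epithelial markers, EPCAM and keratins among them, had means of 9.08 to 13.6. Of the fibroblast markers 7 of 8 were under a log2 value of 6, used here as a mark of values near background, as were 5 of 6 endothelial markers and all 4 leukocyte markers measured; COL1A1 and PECAM1 were the exceptions. The mean over the fibroblast list was 4.13 to 4.25 in pre-miR-371 cells in erlotinib, against 4.15 to 4.29 in pre-miR-371 cells in DMSO, and 4.17 to 4.18 in GFP vector cells in erlotinib, against 4.14 to 4.30 in GFP vector cells in DMSO. PECAM1 was higher with erlotinib in both lines (log2 fold change 1.03 and 1.27). So was VWF (0.52 and 0.48), and CDH5, KDR, TEK and CLDN5 were not called. The mean over the endothelial list was 4.98 to 5.08 in pre-miR-371 cells in erlotinib, against 4.76 to 4.84 in DMSO. In GFP vector cells it was 5.04 to 5.17 in erlotinib, against 4.74 to 4.82 in DMSO. Of the 4 leukocyte markers LYZ alone was called with erlotinib (1.26 and 1.37), and PTPRC, CD3E and CD14 were not. The mean of that list was 3.81 to 4.14 in pre-miR-371 cells in erlotinib, against 3.45 to 3.69 in DMSO, and 3.91 to 3.98 in GFP vector cells in erlotinib, against 3.47 to 3.75 in DMSO. The part of PECAM1, VWF and LYZ in the erlotinib results was not tested.

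Erlotinib changed most of the IGFBP genes, in opposite directions within the family: IGFBP3, IGFBP5 and IGFBP6 rose and IGFBP2 and IGFBP4 fell in both lines, INSR rose in both, and IGF1R passed the test in neither line by its main probe set. Of the 10 members, 4 rose and 3 fell in pre-miR-371 cells at an adjusted p under 0.05 (limma, Benjamini-Hochberg over all genes), where 24.8% of all genes rose, 22.2% fell and 47.0% changed in either direction. In GFP vector cells 5 rose and 3 fell, with 26.5%, 23.4% and 49.8% among all genes. With a fold over 1.5 as well, 5 members passed in pre-miR-371 cells (21.9% of all genes), 4 of them higher (12.6%) and 1 lower (9.33%), and 6 in GFP vector cells (25.8%), 4 higher (14.1%) and 2 lower (11.7%). With so many genes called, the number of members called is not in itself particular to them. The median size of the log2 fold change was 0.55 over the members and 0.22 over all genes in the pre-miR-371 line, and 0.81 over the members and 0.23 over all genes in the GFP vector line. Of all genes, only 9650 had a mean log2 value of at least 6, as had all members but IGFBP4 and IGFBP7. Among those genes, tested apart, 80.1% were called in pre-miR-371 cells and 82.4% in GFP vector cells. The shares and sizes over all genes thus include many genes near background. The arrays of erlotinib and DMSO did not overlap for 10 of 10 members in the pre-miR-371 line (55.8% of all genes) and for 8 of 10 in the GFP vector line (54.1% of all genes). In these bulk samples, fewer cells expressing a gene and less of its RNA per cell cannot be told apart.

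**Figure D1:**
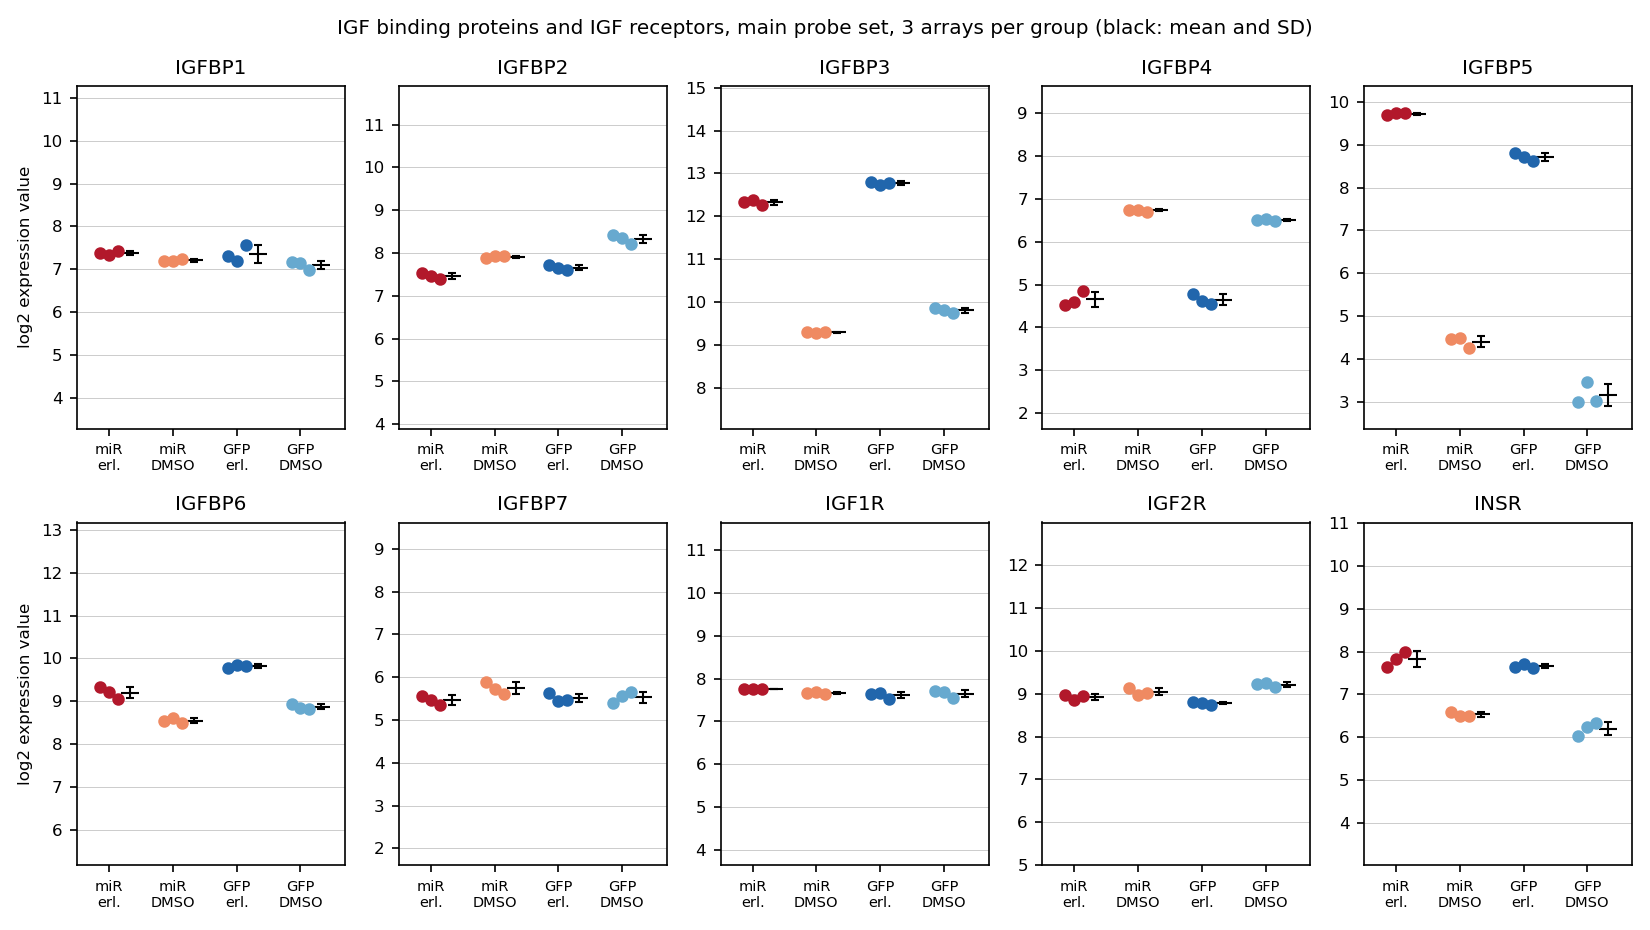
Log2 expression value (y axis, each panel spanning 8 log2 units) of each member on every array, by group along the x axis: pre-miR-371 cells in erlotinib (miR erl.), pre-miR-371 cells in DMSO (miR DMSO), GFP vector cells in erlotinib (GFP erl.) and GFP vector cells in DMSO (GFP DMSO). Points are arrays and black marks the mean and SD (n = 3); IGFBP5 sits between 8.62 and 9.74 on all erlotinib arrays and between 3.00 and 4.49 on all DMSO arrays.

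IGFBP5, a secreted IGFBP that also binds the extracellular matrix, had the largest response of the members. Its log2 values were 9.70, 9.74 and 9.74 in pre-miR-371 cells in erlotinib, against 4.47, 4.49 and 4.25 in pre-miR-371 cells in DMSO. They were 8.80, 8.70 and 8.62 in GFP vector cells in erlotinib, against 3.00, 3.45 and 3.01 in GFP vector cells in DMSO. Every erlotinib array lay far above every DMSO array, and the DMSO arrays lay at values near background (under a log2 value of 6), which leaves the size of the fold change uncertain. The log2 fold change was 5.32 ± 0.11 (SE, adjusted p = 1.22e-11) in the pre-miR-371 line and 5.55 ± 0.11 (adjusted p = 5.63e-12) in the GFP vector line. All 6 probe sets of IGFBP5 rose in both lines, by log2 fold changes of 0.43 to 5.32 in the pre-miR-371 line and 0.48 to 5.55 in the GFP vector line, so the probe sets shared the direction and differed widely in size. Their mean rose by 2.10 in the pre-miR-371 line and 1.84 in the GFP vector line.

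IGFBP3, the main carrier of IGFs in blood, where it joins them in a complex with the acid-labile subunit, was high on all arrays. It had log2 values of 12.34, 12.38 and 12.27 in pre-miR-371 cells in erlotinib, against 9.30, 9.27 and 9.29 in pre-miR-371 cells in DMSO. The values were 12.81, 12.74 and 12.79 in GFP vector cells in erlotinib, against 9.85, 9.81 and 9.75 in GFP vector cells in DMSO. The 4 groups stood apart from each other. The rise was 8.22-fold in the pre-miR-371 line (log2 fold change 3.04 ± 0.054 SE, adjusted p = 3.74e-12) and 7.86-fold in the GFP vector line (2.97 ± 0.054, adjusted p = 2.53e-12). Its second probe set rose by 3.08 in each line.

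IGFBP6, which prefers IGF2 to IGF1, rose less. Values of 9.32, 9.21 and 9.06 in pre-miR-371 cells in erlotinib stood against 8.55, 8.60 and 8.49 in pre-miR-371 cells in DMSO. In GFP vector cells they were 9.77, 9.86 and 9.82 in erlotinib, against 8.94, 8.85 and 8.82 in DMSO. Erlotinib and DMSO arrays did not overlap within either line. The log2 fold change was 0.65 ± 0.070 (SE, adjusted p = 6.15e-06) in the pre-miR-371 line and 0.95 ± 0.070 (adjusted p = 1.65e-07) in the GFP vector line.

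IGFBP4, an inhibitory IGFBP that the protease PAPPA cuts, moved the other way. Its log2 values were 4.53, 4.59 and 4.84 in pre-miR-371 cells in erlotinib, against 6.74, 6.75 and 6.70 in pre-miR-371 cells in DMSO. GFP vector cells had 4.78, 4.62 and 4.54 in erlotinib, against 6.51, 6.54 and 6.49 in DMSO. The erlotinib arrays of both lines lay together under 5, near background, and below all DMSO arrays. The log2 fold change of IGFBP4 was -2.08 ± 0.084 (SE, adjusted p = 1.25e-09) in the pre-miR-371 line and -1.86 ± 0.084 (adjusted p = 2.23e-09) in the GFP vector line, measured down to values near background.

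IGFBP2, which besides IGFs binds integrins, fell in both lines although its chromosomal neighbour IGFBP5 rose. It had 7.53, 7.46 and 7.39 in pre-miR-371 cells in erlotinib, against 7.89, 7.92 and 7.92 in pre-miR-371 cells in DMSO. In GFP vector cells it had 7.73, 7.65 and 7.60 in erlotinib, against 8.41, 8.35 and 8.22 in DMSO. The ranges did not overlap within a line. The log2 fold change was -0.45 ± 0.065 (SE, adjusted p = 8.08e-05) in the pre-miR-371 line and -0.67 ± 0.065 (adjusted p = 2.00e-06) in the GFP vector line.

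IGFBP1, an IGFBP that insulin represses in liver, and IGFBP7, the weak binder, were each called in 1 line only, at small fold changes. IGFBP1 ranged over 7.33 to 7.43 in pre-miR-371 cells in erlotinib, against 7.18 to 7.25 in pre-miR-371 cells in DMSO, and its log2 fold change of 0.17 did not pass the test (adjusted p = 0.146). In the GFP vector line IGFBP1 ranged over 7.18 to 7.58 in erlotinib, against 6.98 to 7.17 in DMSO, and the log2 fold change of 0.26 passed it (adjusted p = 0.0334). Leaving out GFP vector erlotinib replicate 3 made that 0.15 (adjusted p = 0.140), leaving out GFP vector DMSO replicate 2 made it 0.28 (adjusted p = 0.0514) and leaving out GFP vector DMSO replicate 3 made it 0.20 (adjusted p = 0.124). With the mean of its 2 probe sets it was 0.058 (adjusted p = 0.460), as the second, dim at a mean of 2.39, gave -0.14, and the call was also lost with the compared groups alone, with median centring and by the methods' t-test (adjusted p = 0.101, 0.0945 and 0.212). IGFBP7 was under 6 on all arrays; it fell by 0.28 on the log2 scale in the pre-miR-371 line (adjusted p = 0.0271), with values of 5.56, 5.48 and 5.34 in erlotinib, against 5.89, 5.72 and 5.61 in DMSO, and had a log2 fold change of -0.027 in the GFP vector line (adjusted p = 0.849). That IGFBP7 call was lost without either of 2 arrays of each group in the line, erlotinib replicates 2 and 3 (adjusted p = 0.0545 and 0.107) and DMSO replicates 1 and 2 (adjusted p = 0.118 and 0.0550). It was lost too by the methods' t-test (adjusted p = 0.108) and with the mean of its 3 probe sets (-0.086, adjusted p = 0.280), the others, with means of 2.19 and 2.13, giving -0.051 and 0.073.

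Among the receptors, INSR changed most. Its log2 values were 7.64, 7.83 and 8.0 in pre-miR-371 cells in erlotinib, against 6.59, 6.51 and 6.50 in pre-miR-371 cells in DMSO. They were 7.65, 7.72 and 7.62 in GFP vector cells in erlotinib, against 6.03, 6.24 and 6.33 in GFP vector cells in DMSO. All erlotinib arrays were above all DMSO arrays. INSR rose 2.45-fold in the pre-miR-371 line (log2 fold change 1.29 ± 0.095 SE, adjusted p = 2.00e-07) and 2.76-fold in the GFP vector line (1.46 ± 0.095, adjusted p = 4.93e-08). Of its 5 probe sets 4 rose in both lines, and the fifth, the dimmest with a mean of 3.78, was not called in either, and the mean over them rose by 0.84 in the pre-miR-371 line.

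IGF1R stayed within a narrow band. It had 7.75, 7.75 and 7.76 in pre-miR-371 cells in erlotinib, against 7.67, 7.69 and 7.65 in pre-miR-371 cells in DMSO. GFP vector cells had 7.64, 7.67 and 7.53 in erlotinib, against 7.71, 7.68 and 7.56 in DMSO. The log2 fold change was 0.082 (95% interval -0.046 to 0.21, adjusted p = 0.289) in the pre-miR-371 line and -0.034 (-0.16 to 0.094, adjusted p = 0.687) in the GFP vector line. A second IGF1R probe set, with a mean of 6.49, did not follow: its log2 fold change was -0.32 in the pre-miR-371 line (adjusted p = 0.00263 over all probe sets) and -0.40 in the GFP vector line (adjusted p = 0.000435). The other 3, all with means under 5, were not called in either line.

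IGF2R fell in the GFP vector line. Values of 8.97, 8.85 and 8.95 in pre-miR-371 cells in erlotinib stood against 9.14, 8.98 and 9.02 in pre-miR-371 cells in DMSO, and the log2 fold change of -0.12 did not pass the test (adjusted p = 0.123). The mean of all probe sets passed it there (-0.24, adjusted p = 0.00661), as did -0.12 among genes with a mean of at least 6 (adjusted p = 0.0486). In GFP vector cells, 8.80, 8.78 and 8.75 in erlotinib stood against 9.23, 9.25 and 9.16 in DMSO, a log2 fold change of -0.44 ± 0.060 (SE, adjusted p = 4.68e-05). The ranges did not overlap in either line, though in the pre-miR-371 line they all but met. The difference between these responses, pre-miR-371 minus GFP vector, was 0.32 ± 0.085 (SE, 95% interval 0.13 to 0.50, adjusted p = 0.0917), so it did not pass the test over all genes. It passed with the mean of all probe sets (0.40, adjusted p = 0.0346), and the 3 IGF2R probe sets gave differences of 0.32 to 0.57. All 3 fell in the GFP vector line, with log2 fold changes of -0.43 to -1.05, and 1 of them fell in the pre-miR-371 line, with -0.49.

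**Figure D2:**
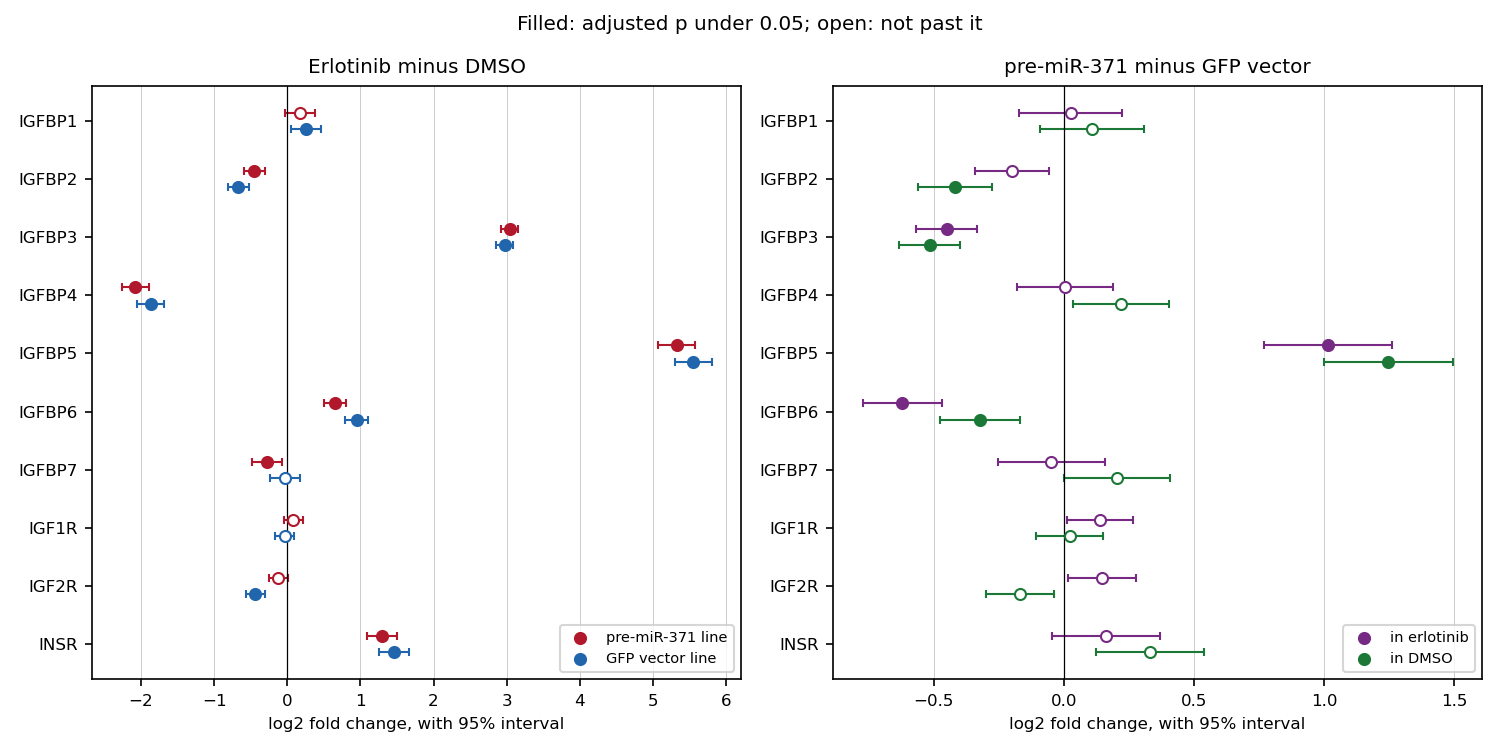
Log2 fold change (x axis) with its 95% interval for each member (rows), erlotinib minus DMSO in each line at left and pre-miR-371 minus GFP vector in each treatment at right. Filled points have an adjusted p under 0.05; IGFBP5, IGFBP3, INSR and IGFBP6 lie to the right of 0 in both lines at left, and IGFBP5 alone lies to the right with filled points at right.

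No member had a response to erlotinib that differed between the lines past the threshold (limma, 0 higher and 0 lower of 10). Over all genes 1.44% were higher and 0.561% lower, 2.00% in either direction. With a fold over 1.5 as well, the shares of all genes were 0.799% in either direction, 0.516% higher and 0.283% lower. A missing call does not show that the responses were alike. The median size of the difference was 0.22 over the members and 0.12 over all genes, many of them near background. The 6 probe sets of IGFBP5 gave differences of -0.23 to 1.07, with 0 called. At an unadjusted p under 0.05, limma gave 3 of 10, IGFBP2 (0.22), IGFBP6 (-0.30) and IGF2R, against 15.0% of all genes. Other settings called 1 higher (IGF2R) and up to 1 lower (IGFBP6).

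Between the lines, IGFBP5 was higher and IGFBP3 and IGFBP6 were lower in pre-miR-371 cells in both treatments, and IGFBP2 was lower in DMSO. In erlotinib 1 of 10 members was higher and 2 lower (6.50% and 9.46% of all genes, 16.0% in either direction). In DMSO 1 was higher and 3 lower (1.62% and 3.64% of all genes, 5.25% in either direction), and arrays of pre-miR-371 and GFP vector cells stood apart for 6 of 10 members in erlotinib (36.0% of all genes) and 8 of 10 in DMSO (28.4% of all genes). Over all genes, 320 were higher and 719 lower in DMSO, a split that became 528 and 453 when quantile normalization was repeated; the member counts in DMSO kept their values under that setting. Among genes with a mean of at least 6, tested apart, 39.4% were called in erlotinib and 21.7% in DMSO. The shares over all genes are not stable. In erlotinib the calls over all genes numbered 1760 (8.90%) without pre-miR-371 erlotinib replicate 3, 2033 without GFP vector erlotinib replicate 1 and 2040 without replicate 2, against 3156 with all arrays. In DMSO they numbered 530, 388 and 276 (1.40%) without pre-miR-371 replicate 1, 2 or 3 and 448 and 421 without GFP vector replicate 1 or 2, against 1039 with all arrays, and they ran from 46 by the methods' t-test to 3800 with array weights. With a fold over 1.5 as well, 2 members passed in erlotinib (1.24% of all genes), IGFBP5 higher (0.688%) and IGFBP6 lower (0.551%), and in DMSO 1 passed (0.450%), IGFBP5 higher (0.217%), with 0 lower (0.233%). These comparisons use the same 12 arrays as the erlotinib comparisons.

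IGFBP5 was 2.02-fold higher in pre-miR-371 than in GFP vector cells in erlotinib (log2 fold change 1.02 ± 0.11 SE, adjusted p = 0.000252) and 2.37-fold in DMSO (1.25 ± 0.11, adjusted p = 0.000257). All 3 arrays of the pre-miR-371 line were above all 3 of the GFP vector line in each treatment. In erlotinib 3 of its 6 probe sets were called higher, and the highest difference was 1.14. In DMSO only the main probe set was called, the other 5 giving -0.075 to 0.20, and with the mean of all probe sets the DMSO difference was 0.23 (adjusted p = 0.119). The line difference in DMSO thus rests on 1 probe set with values near background.

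IGFBP3 was lower in pre-miR-371 than in GFP vector cells, with a log2 fold change of -0.45 ± 0.054 in erlotinib (SE, adjusted p = 0.000378) and -0.52 ± 0.054 in DMSO (adjusted p = 0.000570). Its second probe set gave -0.60 in each treatment. IGFBP6 was lower too, with -0.62 ± 0.070 in erlotinib (adjusted p = 0.000274) and -0.32 ± 0.070 in DMSO (adjusted p = 0.0247). The DMSO call of IGFBP6 was lost when 1 array was left out, with an adjusted p of 0.0684, 0.0573 and 0.10 without pre-miR-371 DMSO replicate 1, 2 or 3 and of 0.0815 and 0.0672 without GFP vector DMSO replicate 1 or 2. For IGFBP2 the log2 difference was -0.20 in erlotinib (adjusted p = 0.0580, with 0.0442 and 0.0398 without GFP vector DMSO replicate 1 or 3) and -0.42 in DMSO (adjusted p = 0.00564).

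The other members gave no call between the lines with all arrays. INSR had log2 differences of 0.16 (adjusted p = 0.278) in erlotinib and 0.33 (adjusted p = 0.0669) in DMSO, the second passing without pre-miR-371 erlotinib replicate 1 or 3 or GFP vector DMSO replicate 3 (adjusted p = 0.0470, 0.0486 and 0.0423), IGFBP4 0.0035 (adjusted p = 0.985) and 0.22 (adjusted p = 0.149), and IGF2R 0.15 (adjusted p = 0.124) and -0.17 (adjusted p = 0.124). IGF1R had 0.14 (adjusted p = 0.133) and 0.022 (adjusted p = 0.855), while its second probe set was higher in pre-miR-371 cells in erlotinib by 0.28 (adjusted p = 0.0266). IGFBP1 and IGFBP7 lay between -0.049 and 0.20.

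Ordered by their means, the groups fell into a few patterns. For IGFBP3 and IGFBP6 the order from the top was GFP vector in erlotinib, pre-miR-371 in erlotinib, GFP vector in DMSO and pre-miR-371 in DMSO, and each neighbour differed from the next. IGFBP5 ran pre-miR-371 in erlotinib, GFP vector in erlotinib, pre-miR-371 in DMSO and GFP vector in DMSO, again with every step past the test, and the step between the treatments was 4.31. The step between the DMSO groups is less firm for 2 of these genes. For IGFBP5 it rests on 1 of 6 probe sets, near background, and for IGFBP6 it was lost with single DMSO arrays left out. INSR had the same order as IGFBP5, but only the step between treatments, 1.13, passed. IGFBP4 had both DMSO groups on top, and within a treatment the lines were not called apart. IGFBP2 ran GFP vector in DMSO, pre-miR-371 in DMSO, GFP vector in erlotinib and pre-miR-371 in erlotinib, with the last step not past the test. No neighbouring groups were called apart for IGF1R, IGF2R, IGFBP1 or IGFBP7.

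**Figure D3:**
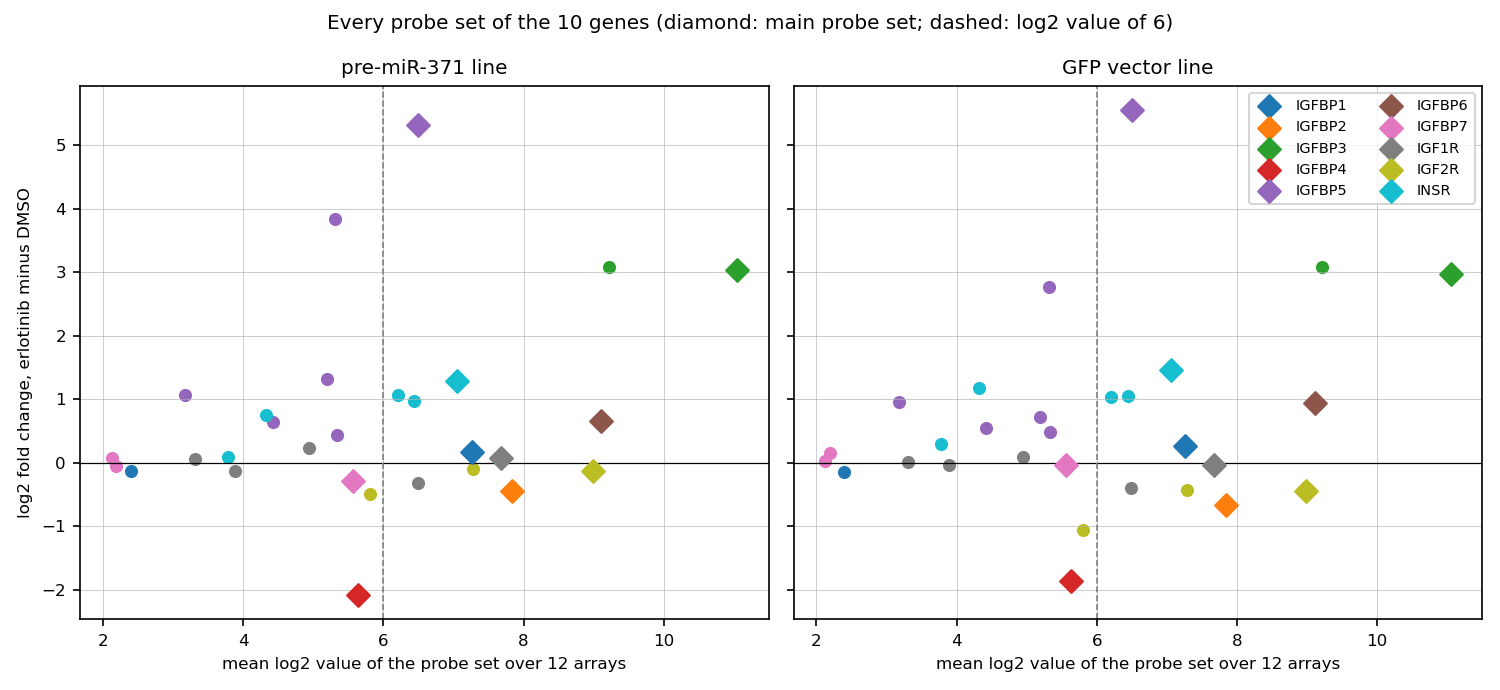
Log2 fold change, erlotinib minus DMSO (y axis), against the mean log2 value over 12 arrays (x axis) for all 29 probe sets of the members, in the pre-miR-371 line (left) and the GFP vector line (right). Diamonds are main probe sets and the dashed line is a log2 value of 6; the probe sets of IGFBP5 are all above 0 and those of IGF1R lie on both sides of it.

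The genes whose pattern over the 12 arrays was most like that of a member were found by Pearson r among 9642 genes with a mean of at least 6, as a description over arrays that share groups and normalization. For IGFBP3 they were TMEM139 (r = 0.9992), the protocadherin gene PCDH7 (0.9990) and the plexin gene PLXNB2 (0.9989). IGFBP5 was closest to the myosin light chain gene MYL6 (0.9977), PTGR1 (0.9969) and AKR1C2 (0.9968), both genes of reductases, whose own erlotinib responses were far smaller, 0.38 to 0.77 on the log2 scale. IGFBP6 was closest to the transcription factor gene CEBPD (0.9964), OSTF1 and ADIRF, IGFBP4 to the pseudokinase gene TRIB2 (0.9964), PELO and FASTKD2, and INSR to LYNX1 (0.9919), GCC2 and the fibronectin gene FN1.

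Around the members, 59 pathway genes were measured, of which 59.3% were called with erlotinib in the pre-miR-371 line and 62.7% in the GFP vector line, against 47.0% and 49.8% of all genes. Among all genes with a mean of at least 6, fitted and adjusted apart, the shares called were 80.1% and 82.4%. The 59 pathway genes include some with means under 6, so their shares and these are not for like sets. The ligand genes IGF1 (4.46 to 4.51 in the group means) and INS (3.33 to 3.65), the 2 measured of 3 listed, were near background in all groups, so a response could not be judged. IGF2, the other ligand gene listed, was not among the genes measured, so its level is not known here. Among 8 genes that handle IGFs and IGFBPs outside the cell, 4 fell and 0 rose in pre-miR-371 cells, and 3 fell and 0 rose in GFP vector cells. PAPPA, the protease that cuts IGFBP4, fell, with log2 fold changes of -1.08 in the pre-miR-371 line and -1.49 in the GFP vector line and means of 4.41 and 4.43 in erlotinib, against 5.49 and 5.92 in DMSO, all under 6 and near background. STC2, an inhibitor of PAPPA, fell as well (-1.53 in the pre-miR-371 line and -1.47 in the GFP vector line), and so did ADAM12, a protease that cuts IGFBPs (-1.01 and -0.97, in the same order of lines, which the pairs of values after this keep). The erlotinib means of ADAM12 were 5.90 and 5.89, just under 6. STC1 fell by 0.20 on the log2 scale in the pre-miR-371 line (adjusted p = 0.0289) and had 0.041 in the GFP vector line (adjusted p = 0.668), and the difference of these responses did not pass the test (adjusted p = 0.258). That call was lost without pre-miR-371 erlotinib replicate 2 or 3 or DMSO replicate 1 or 2 (adjusted p = 0.0555, 0.113, 0.101 and 0.0534). IGFALS, the acid-labile subunit, was not called in either line.

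Below the receptors, 3 of 13 substrates, adaptors and dampers rose and 7 fell in pre-miR-371 cells, and 3 rose and 6 fell in GFP vector cells. IRS1, the adaptor that IGF1R and INSR phosphorylate, had the largest fall of the list, with log2 fold changes of -2.33 (adjusted p = 1.24e-10) and -2.51 (adjusted p = 4.32e-11), and IRS2 fell too (-0.68 and -0.54). Dampers fell as well: SOCS2 (-1.90 and -2.05), SOCS3 (-1.28 and -1.75, at erlotinib means of 4.82 and 4.70, near background) and GRB14, which blocks the INSR kinase (-1.09 and -1.42, at erlotinib means of 5.88 and 5.67, under 6). The adaptors GAB1 (log2 fold change 0.87 and 0.84, at DMSO means of 5.24 and 5.26) and SH2B1 (0.68 and 0.68) rose.

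In the PI3K and AKT list, of which 16 of 20 genes were measured, 7 rose and 4 fell in pre-miR-371 cells, and 8 rose and 5 fell in GFP vector cells. The regulatory subunit gene PIK3R1 (0.94 and 0.81) and TSC1, a brake on mTORC1 (0.65 and 0.80), rose. PHLPP2, a phosphatase of AKT (-1.10 and -1.64, at an erlotinib mean of 5.83 in the GFP vector line), and AKT1 (-0.49 and -0.68) fell. Of 11 genes of mannose 6-phosphate sorting, in which IGF2R works, 3 rose and 3 fell in pre-miR-371 cells, and 3 rose and 5 fell in GFP vector cells: GNPTG (0.77 and 0.84) and GNPTAB (0.68 and 0.50), subunits of the enzyme that makes the tag, rose, and the adaptor gene AP1M1 (-0.68 and -0.69) and M6PR, the smaller receptor for the tag (-0.35 and -0.40), fell.

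IGF2BP1 and IGF2BP2, which bind IGF2 mRNA and are unrelated to the IGFBPs, fell in both lines (-0.47 and -0.84 for IGF2BP1, -0.46 and -0.66 for IGF2BP2), and IGF2BP3 was not called in either. Of the 6 CCN genes, whose proteins hold a domain like that of the IGFBPs, CCN1 fell (-0.71 and -1.09) and CCN5 rose (0.71 and 0.68, at group means of 4.01 to 4.98, near background), and the other 4 were not called.

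Between the lines, 12 of the 59 pathway genes (20.3%, against 16.0% of all genes) were called in erlotinib. The calls of 5 held with each array left out: IGF2BP2 (0.36), IGF2BP3 (0.37) and CCN1 (0.41) were higher in pre-miR-371 cells, and PHLPP1 (-0.46) and AP1M1 (-0.41) were lower. The other 7, IRS1, SH2B2, PHLPP2, STC2, PIK3R3, GNPTG and NAGPA, each lost the call without at least 1 erlotinib array (adjusted p up to 0.0941), and 8 pathway genes were called without GFP vector erlotinib replicate 1, or without replicate 2. By the methods' t-test 2 of the 12, CCN1 and PIK3R3, kept the call. In DMSO 3 pathway genes (5.08%, against 5.25% of all genes) were called. AP1M1 (-0.42) was lower and held with each array left out. IGF2BP3, higher, and PTPN1, a phosphatase of INSR, lower (-0.30), lost the call without 1 DMSO array: 1 gene was called without pre-miR-371 DMSO replicate 2, or without replicate 3, and 2 without GFP vector DMSO replicate 2. PTPN1 turned to 0.055 with the mean of its probe sets, and 0 of the 3 passed the methods' t-test. None of the pathway genes had a response to erlotinib that differed between the lines past the threshold.

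**Figure D4:**
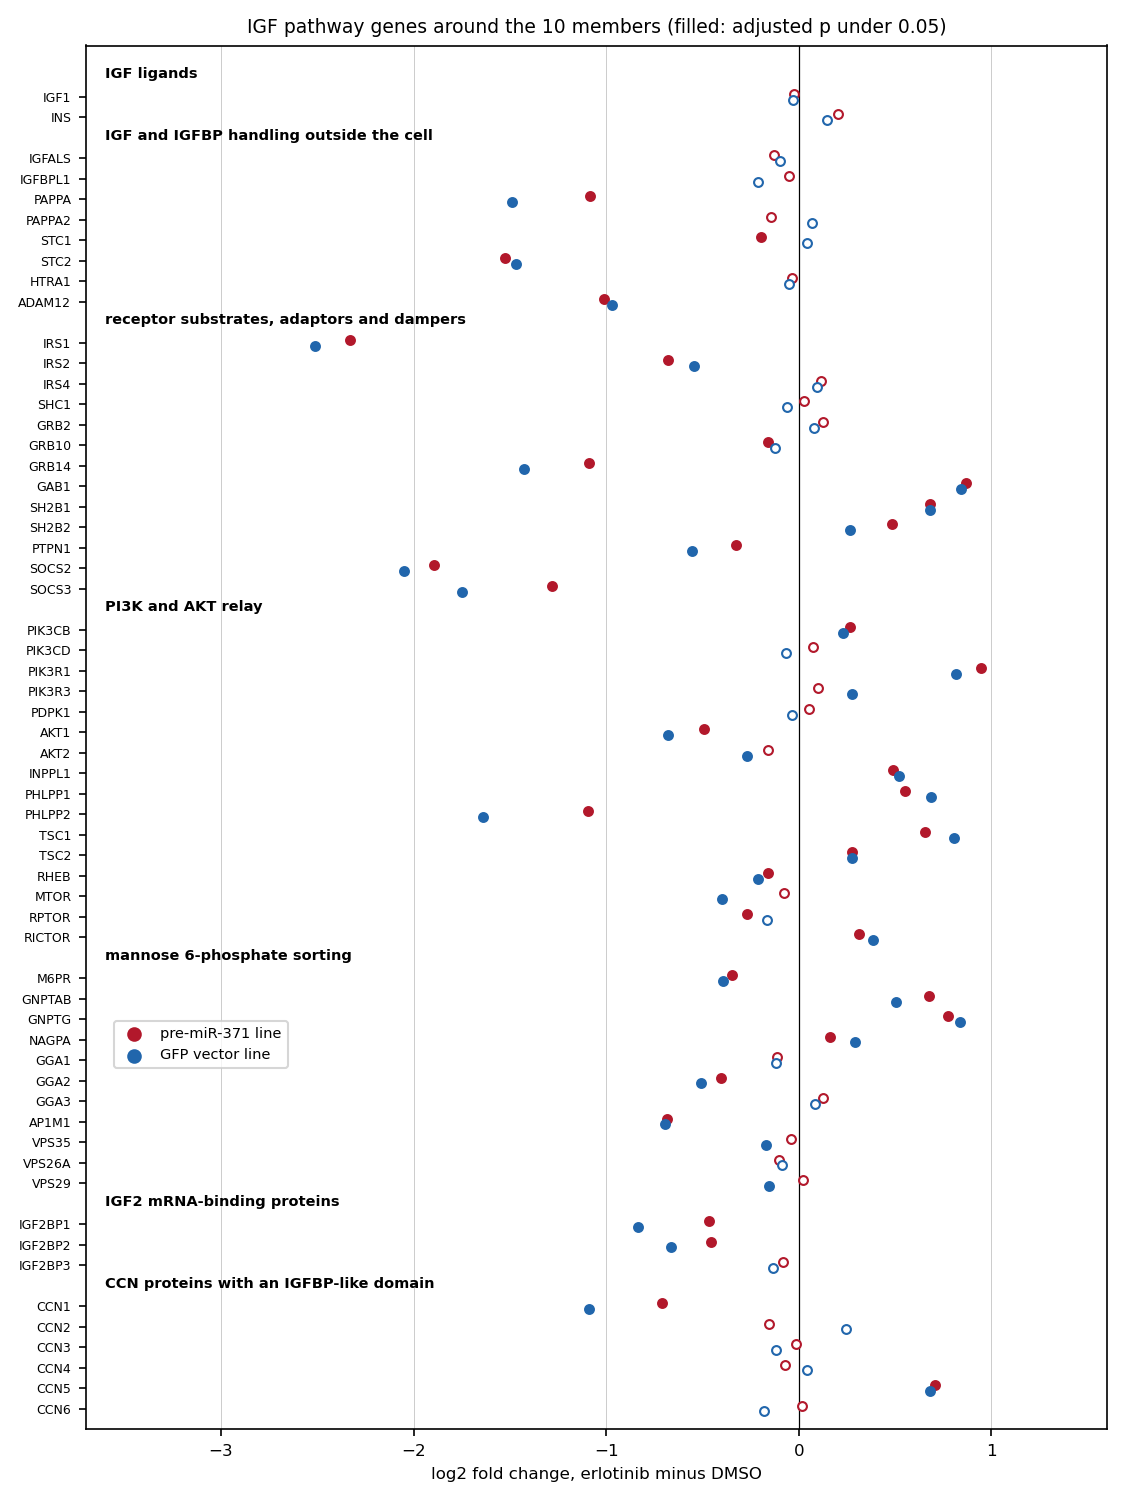
Log2 fold change, erlotinib minus DMSO (x axis), of the pathway genes around the members (rows, by list), in the pre-miR-371 line (red) and the GFP vector line (blue). Filled points have an adjusted p under 0.05; IRS1 lies farthest left, at -2.33 and -2.51.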

How the data were processed

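Expression was measured on 12 Affymetrix Hgu133plus2 arrays, 3 in each of 4 groups taken from the labels. Each array has 1 log2 value for each probe set, as the authors deposited them. RMA and affy are the tools listed in the submitters' processing notes, the methods add quantile normalization and LIMMA, and no versions were found in these sources. Background correction and normalization are thus in the values already, and depth does not apply to arrays, whose number limits the precision. Probe sets were named through the platform annotation: 41097 of 54675 had 1 symbol, and those with several or none were left out. Log2 fold changes came from limma 3.58.1 (lmFit, eBayes) under R 4.3.3, fitted over all 12 arrays with 1 mean per group, and p-values were adjusted by Benjamini-Hochberg over 19775 genes, with calls at an adjusted p under 0.05. The code was tested on simulated data. No detection calls were used, so a log2 value of 6 served as a mark of low values. Sequences came from RefSeq tables (GRCh38.p14), read with Python 3.11.15, and figures from matplotlib 3.10.9.

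The members and lists were chosen with earlier results of these data known. The genes named are all members; of each pathway list up to 4 with the smallest p per erlotinib comparison and those called between the lines; the 3 genes most like each member called in both lines with a fold over 1.5; 4 genes that check the drug; and cell type markers. Single genes besides these (IGFALS, STC1, IGF1, INS, M6PR, SH2B1, IRS2 and others of a list) were named to complete an account of a list. Alternatives were the mean of all probe sets, every probe set, a mean of at least 6, the compared groups alone, the replicate number as a block, repeated quantile normalization, median centring, trend and robust variance, array weights, a fold over 1.5, the methods' t-test and each array left out. The t-test was unmoderated, with Benjamini-Hochberg adjustment, and is not the test the methods name for finding changed genes on the arrays.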

Additional observations from a re-analysis of the deposited data

Results flagged for a closer look

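The members, the measured pathway genes, the drug checks and the cell type markers made 99 genes. Genes named only as most like a member were not among them. Of the 99, 2 had erlotinib responses that differed between the lines past the threshold. That is 2.02% of them, against 2.00% of all genes, and neither is an IGF gene. CDH1, the E-cadherin gene of the epithelial list, had a log2 response of 0.16 in the pre-miR-371 line and -0.16 in the GFP vector line, a difference of 0.32 (limma, adjusted p = 0.0433). EGR1, an early response gene used to check the drug, had a log2 response of -3.20 in the pre-miR-371 line and -4.34 in the GFP vector line, a difference of 1.14 (adjusted p = 0.00615). Its means were 4.28 and 3.92 in erlotinib, near background, against 7.49 and 8.26 in DMSO, which leaves the size of that difference uncertain.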

How the results depend on the processing

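Every alternative kept the directions of IGFBP3, IGFBP4, IGFBP5, IGFBP6, IGFBP2 and INSR with erlotinib in both lines. The share of all genes called so, under the same setting, stands in parentheses after each count. Members called lower with erlotinib in the pre-miR-371 line numbered 1 with a fold over 1.5 (9.33%). Between the lines in erlotinib, members higher numbered 3 with a mean of at least 6 (15.0%) and 3 with quantile normalization repeated (8.90%), and members lower numbered 1 with a fold over 1.5 (0.551%). In DMSO, members higher numbered 0 with the mean of all probe sets (1.15%), 2 with a mean of at least 6 (4.73%), 2 with trend and robust variance (3.33%), 3 with array weights (7.80%), 0 by the methods' t-test (0.0506%) and 1 to 2 when 1 array was left out (0.399% to 2.42%), and members lower numbered 0 with a fold over 1.5 (0.233%) and 1 by the methods' t-test (0.182%). For the difference of responses, members higher numbered 1, IGF2R each time, with the mean of all probe sets (1.44%), a mean of at least 6 (6.52%), trend and robust variance (3.49%) or array weights (3.14%), and members lower numbered 1, IGFBP6, with trend and robust variance (1.87%) or array weights (2.25%). With 1 array left out, 204 to 406 of all genes were called for that difference, against 395. The mean of at least 6 leaves IGFBP4 and IGFBP7 out, and the cause of the other changes was not tested.

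Signs turned only for values that were not called, PTPN1 excepted. With the mean of all probe sets IGF1R became -0.013 in the pre-miR-371 line with erlotinib, IGFBP7 0.051 in the GFP vector line, IGFBP1 -0.017 between the lines in erlotinib, PTPN1 0.055 between them in DMSO, and the difference of responses of IGFBP5 0.26. Array weights gave IGFBP1 -0.015 and IGFBP4 -0.0082 between the lines in erlotinib, and median centring gave IGF1R -0.0063 between them in DMSO. With 1 array left out, the ranges were -0.095 to 0.033 for IGFBP7 and -0.080 to 0.0072 for IGF1R in the GFP vector line with erlotinib, -0.061 to 0.14 for IGFBP1, -0.091 to 0.071 for IGFBP4 and -0.10 to 0.011 for IGFBP7 between the lines in erlotinib, -0.024 to 0.052 for IGF1R between them in DMSO, and -0.17 to 0.027 for the difference of responses of IGFBP1.

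Samples with the same replicate number had deviations that correlated at -0.057 to 0.20 (median 0.034; 7 of 18 pairs above 0.1), and those with different numbers at -0.20 to 0.11 (median -0.030; 1 of 36 pairs above 0.1). Same-numbered samples were thus somewhat more alike, but not every pair was above 0.1 and the labels name no shared batch, so the numbers were not taken to pair the samples. With the replicate number as a block, 4 members rose and 3 fell with erlotinib in pre-miR-371 cells, and 5 rose and 3 fell in GFP vector cells, as without it; between the lines in erlotinib IGFBP2 joined those lower (-0.20, adjusted p = 0.0383), and no other member call changed. Low signal limits IGFBP5 in DMSO, IGFBP4 in erlotinib and IGFBP7 throughout, and among the pathway genes PAPPA, SOCS3, GAB1, SH2B2 and CCN5, whose means over all arrays were under 6. GRB14 and ADAM12 in erlotinib in both lines, and PHLPP2 in GFP vector cells in erlotinib, also had group means under 6.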
